A study of Homo sapiens with 12 samples.

Results

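The genes of cholesterol and fatty acid synthesis were followed in OCI-Ly7 cells, a cell line from a diffuse large B-cell lymphoma, through 24 h with vehicle or with an inhibitor of Btk, the kinase that relays the B-cell receptor signal inside the cell. The module was set by gene name and holds 39 genes, of which 5 are regulators of the pathway, 20 belong to the sterol branch and 14 to the fatty acid branch. A member was measured where the array has a probe set with its symbol alone, which held for 34 members out of 19775 genes measured in that way, namely 5 regulators, 18 sterol genes and 11 fatty acid genes. CYP51A1, ELOVL1 and FADS1 are read only by probe sets that share another gene symbol, and FDFT1 and ACSL3 have no probe set in the annotation used here. The 4 groups were vehicle, 1 μM ibrutinib, 10 μM ibrutinib and 1 μM PLS-123, with 3 Affymetrix U133 Plus 2.0 arrays in each, lettered A, B and C. All cells were of the same line. The paper gives IMDM or DMEM with fetal bovine serum for its cell lines and does not say which was used for these arrays. Ibrutinib is a covalent Btk inhibitor in clinical use, and PLS-123 is the covalent Btk inhibitor that the study set against it. Nothing in the labels tells whether arrays of 1 group came from separate cultures, so the p values measure the spread between these arrays, which may be technical.

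Cells make cholesterol from acetyl-CoA through mevalonate, squalene and a series of sterol intermediates, and they build fatty acids from the same acetyl-CoA by way of malonyl-CoA. Both branches are switched on by the SREBP transcription factors, which SCAP carries from the endoplasmic reticulum to the Golgi for cleavage when sterols are low and which the INSIG proteins hold back when sterols are plentiful. SREBP-2, from SREBF2, favours the sterol genes, and SREBP-1, from SREBF1, favours the fatty acid genes. Dividing lymphoma cells draw on both branches for new membrane.

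Values are log2 of the intensities that the authors normalized by RMA, a method that corrects background, equalizes the arrays and summarizes each probe set. A gene is given by its brightest probe set, and where its probe sets disagree also by their centred median, which is the median over all its probe sets after each was centred on its own mean, a choice made after the values were seen. Levels are not compared between genes, because probe sets differ in brightness for reasons of design. Differences are log2 differences from limma fitted to all 12 arrays, with a p value adjusted by the Benjamini-Hochberg method over the 54613 probe sets of a comparison, and a gene was called changed at an adjusted p under 0.05. In whole cultures, fewer cells of a type and less RNA per cell cannot be told apart. No member was dim, which means below the median of all probe sets at a log2 intensity of 3.87. Of 9 B-cell markers 8 were measured and none was dim, while 6 of 8 T and NK cell markers, 5 of 7 myeloid markers and 4 of 7 stromal and epithelial markers were dim. The summed log2 level of the 8 B-cell markers ran from 87.3 to 87.5 with vehicle, 85.2 to 85.4 with 10 μM ibrutinib and 84.6 to 85.1 with PLS-123. The markers did not move alike, since with PLS-123 3 were higher and 5 lower, from CD22 (−2.14, adjusted p = 1.45e-09) to MME (1.69, adjusted p = 2.88e-09), and their part in the results was not tested. The log2 difference between the 3' and 5' control probe sets of ACTB, which grows as RNA is shortened, was 2.64 ± 0.04 (SD, n = 3) with vehicle, 2.67 ± 0.18 at 1 μM ibrutinib, 2.74 ± 0.08 at 10 μM ibrutinib and 2.93 ± 0.20 with PLS-123. It was highest on array C of PLS-123, at 3.17, and at 2.87 on array A of 1 μM ibrutinib. Its part in the results below was not tested beyond a fit that carries it as a covariate, whose values stand beside the calls that it ended. The same difference for GAPDH ran from 0.27 to 0.35 with vehicle and from 0.24 to 0.31 at 1 μM ibrutinib. It ran from 0.38 to 0.40 at 10 μM ibrutinib and from 0.44 to 0.47 with PLS-123, both above vehicle without overlap. No fit carried the GAPDH difference, and its part in the results was not tested.

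The module did not move as a block with any treatment. With PLS-123, 4 of the 34 measured members rose and 4 fell. That is 11.8% in each direction, where 7.54% of all genes rose and 12.8% fell. With the ACTB covariate 3 rose and 2 fell, beside 3.86% and 4.28% of all genes, and by the centred median over probe sets 4 rose and 9 fell, beside 7.07% and 13.6%. With 10 μM ibrutinib 3 members rose and 3 fell, or 8.82% in each direction, beside 6.71% and 5.82% of all genes, and by the centred median 4 rose and 4 fell, beside 6.74% and 6.91%. With 1 μM ibrutinib no member was called, as no gene was (0% in either direction). By the brightest probe set the share of members that fell with PLS-123 was thus near that of all genes. With so few members, the other shares by the brightest probe set differed from the background by fewer than 2 genes. By the centred median, the 9 of 34 members that fell with PLS-123 were a larger share than the 13.6% of all genes, which was not tested. The median difference of the 34 members was 0.04 with PLS-123, 0.07 at 10 μM ibrutinib and 0.04 at 1 μM ibrutinib, beside medians over all genes of −0.04, −0.02 and −0.01. Behind these flat medians stood a few large and opposed changes. ELOVL6 and AACS rose and PMVK fell with both PLS-123 and 10 μM ibrutinib, which share the vehicle arrays.

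**Figure D1:**
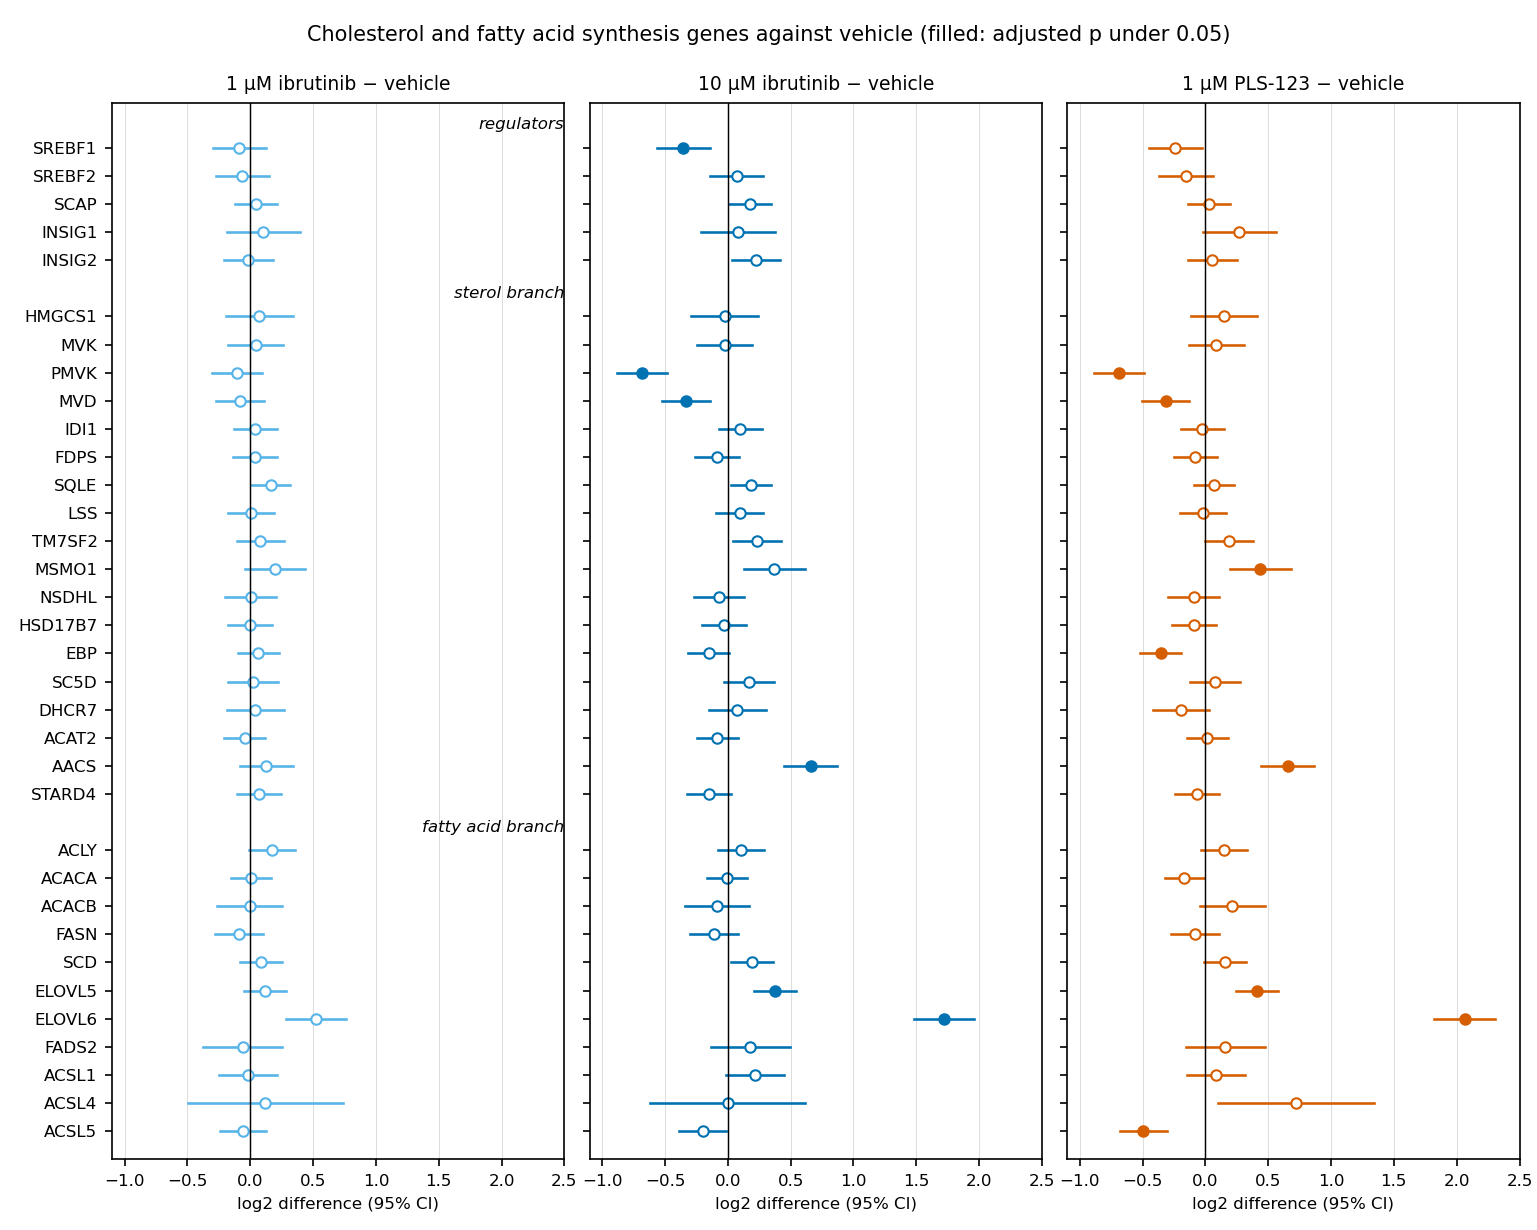
Log2 difference from vehicle of the 34 measured members (rows, ordered as regulators, sterol branch and fatty acid branch) with 1 μM ibrutinib, 10 μM ibrutinib and 1 μM PLS-123, 1 panel each; points are limma estimates from 3 arrays against 3, bars are 95% confidence intervals and filled points have an adjusted p under 0.05. Most intervals lie near 0, while ELOVL6 stands far to the right with PLS-123 (2.06) and 10 μM ibrutinib (1.72) and PMVK to the left (−0.69 and −0.68).

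By their brightest probe sets, SREBF1 alone of the 5 regulators was called, and with 10 μM ibrutinib alone. SREBF1, which encodes SREBP-1, read 7.54, 7.57 and 7.39 with vehicle, 7.21, 7.56 and 7.47 at 1 μM ibrutinib, 7.17, 7.12 and 7.15 at 10 μM ibrutinib and 7.31, 7.31 and 7.15 with PLS-123. All 3 arrays of 10 μM ibrutinib and all 3 of PLS-123 lay below all 3 vehicle arrays. The fall with 10 μM ibrutinib was 0.36 (difference −0.36, SE 0.10, adjusted p = 0.0342), whereas the difference with PLS-123, −0.24, was not called (adjusted p = 0.118). The call for SREBF1 rests on every array of its contrast but 1: it was lost without array A (adjusted p = 0.102) or B (0.124) of vehicle and without array A (0.0744), B (0.106) or C (0.0854) of 10 μM ibrutinib. It was also lost with the ACTB covariate (0.0528), with array centring (0.0583) and with the centred median over the gene's probe sets (−0.16, adjusted p = 0.123). The call held in 11 of the 22 alternative settings.

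SREBF2, which encodes SREBP-2, read 7.56, 7.48 and 7.47 with vehicle, 7.26, 7.55 and 7.51 at 1 μM ibrutinib, 7.51, 7.60 and 7.61 at 10 μM ibrutinib and 7.49, 7.20 and 7.36 with PLS-123. Its PLS-123 and 10 μM ibrutinib arrays overlapped those of vehicle, and its difference from vehicle was −0.15 with PLS-123 (adjusted p = 0.341) and 0.07 at 10 μM ibrutinib (0.761). By the centred median of its probe sets SREBF2 fell with PLS-123 (−0.41, adjusted p = 0.000508). SCAP, the escort of the SREBPs, lay at 7.89, 7.89 and 7.91 with vehicle, 7.83, 8.03 and 7.98 at 1 μM ibrutinib, 8.06, 8.10 and 8.07 at 10 μM ibrutinib and 7.89, 7.91 and 7.98 with PLS-123. The arrays of 10 μM ibrutinib were the highest, 0.18 above vehicle in the mean, without a call (adjusted p = 0.203). INSIG1, which retains SCAP in the endoplasmic reticulum and is itself an SREBP target, read 9.39, 9.56 and 9.46 with vehicle, 9.92, 9.29 and 9.51 at 1 μM ibrutinib, 9.55, 9.58 and 9.51 at 10 μM ibrutinib and 9.91, 9.56 and 9.74 with PLS-123. The highest INSIG1 values were array A of 1 μM ibrutinib and array A of PLS-123, and its difference of 0.27 with PLS-123 was not called (adjusted p = 0.209). INSIG2, the second retention protein, read 6.90, 6.94 and 6.80 with vehicle, 6.85, 6.94 and 6.80 at 1 μM ibrutinib, 7.01, 7.27 and 7.03 at 10 μM ibrutinib and 6.94, 6.86 and 7.0 with PLS-123, with a difference of 0.22 at 10 μM ibrutinib that missed the threshold (adjusted p = 0.16).

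In the sterol branch, 2 of 18 measured genes rose and 3 fell with PLS-123 (11.1% and 16.7%, beside 7.54% and 12.8% of all genes). With 10 μM ibrutinib 1 rose and 2 fell (5.56% and 11.1%, beside 6.71% and 5.82% of all genes). The median of the branch was −0.02 with PLS-123, −0.03 at 10 μM ibrutinib and 0.04 at 1 μM ibrutinib. The genes that fell encode a kinase and a decarboxylase of the mevalonate part and an isomerase of the sterol part, and those that rose encode a demethylation enzyme and a synthetase that feeds the pathway.

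At the entry to the branch, HMGCS1, which makes HMG-CoA, differed from vehicle by 0.15 with PLS-123 (adjusted p = 0.474), and MVK, the first mevalonate kinase, by 0.09. PMVK, the kinase that makes mevalonate diphosphate, read 8.52, 8.63 and 8.44 with vehicle, 8.24, 8.53 and 8.50 at 1 μM ibrutinib, 7.83, 7.80 and 7.92 at 10 μM ibrutinib and 7.84, 7.82 and 7.87 with PLS-123. The 6 arrays of 10 μM ibrutinib and PLS-123 all lay below the 6 others. PMVK fell by 0.69 with PLS-123 (difference −0.69, SE 0.09, adjusted p = 0.000156), to 62.2% of vehicle, and by 0.68 at 10 μM ibrutinib (difference −0.68, adjusted p = 0.000203), and both calls held in all 22 alternative settings. MVD, which decarboxylates the product of PMVK, read 4.98, 5.0 and 4.86 with vehicle, 4.74, 4.93 and 4.93 at 1 μM ibrutinib, 4.69, 4.56 and 4.60 at 10 μM ibrutinib and 4.60, 4.75 and 4.54 with PLS-123. Both treated groups lay below vehicle without overlap. The fall of MVD was 0.32 with PLS-123 (difference −0.32, SE 0.09, adjusted p = 0.0243) and 0.33 at 10 μM ibrutinib (difference −0.33, adjusted p = 0.0283). These calls were close to the threshold and held in 14 (PLS-123) and 13 (10 μM ibrutinib) of the 22 alternative settings. With PLS-123 the call of MVD was lost without array A (adjusted p = 0.0742) or B (0.0889) of vehicle and without array A (0.0681) or C (0.0999) of PLS-123, with centring (0.0574) and with the ACTB covariate (difference −0.18, adjusted p = 0.418). With 10 μM ibrutinib it was lost without array A (0.0891) or B (0.103) of vehicle and without array B (0.108) or C (0.0849) of the treatment, with centring (0.0555), with an intensity trend (0.0524) and with the ACTB covariate (0.0518). IDI1, the isomerase that follows, differed by −0.03 with PLS-123, and FDPS, which makes farnesyl diphosphate, by −0.08, neither called.

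Of the genes that turn squalene into cholesterol, EBP and MSMO1 were called with PLS-123 and in opposite directions. EBP, the sterol isomerase, read 9.86, 9.84 and 9.83 with vehicle, 9.86, 9.95 and 9.91 at 1 μM ibrutinib, 9.63, 9.77 and 9.68 at 10 μM ibrutinib and 9.55, 9.51 and 9.41 with PLS-123. The PLS-123 arrays were the 3 lowest of the 12. EBP fell by 0.36 with PLS-123 (difference −0.36, SE 0.08, adjusted p = 0.00507), a call kept in 20 of the 22 settings but not with the ACTB covariate (−0.28, adjusted p = 0.126), and its difference of −0.15 at 10 μM ibrutinib was not called (adjusted p = 0.278). MSMO1, the sterol C4-methyl oxidase, read 9.49, 9.31 and 9.48 with vehicle, 9.81, 9.45 and 9.61 at 1 μM ibrutinib, 9.83, 9.82 and 9.74 at 10 μM ibrutinib and 10.01, 9.65 and 9.94 with PLS-123. Neither PLS-123 nor 10 μM ibrutinib overlapped vehicle, which was lower on each array. MSMO1 rose by 0.44 with PLS-123 (SE 0.11, adjusted p = 0.0159), and with 10 μM ibrutinib its difference of 0.37 just missed the threshold (adjusted p = 0.0549). The rise of MSMO1 lost its call without array B of vehicle (0.0717), array A (0.0675) or array C (0.0648) of PLS-123, and with the ACTB covariate (0.27, adjusted p = 0.335).

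SQLE, the squalene epoxidase and a rate-limiting enzyme of the later pathway, read 9.71, 9.73 and 9.80 with vehicle, 9.89, 9.92 and 9.91 at 1 μM ibrutinib, 9.95, 9.99 and 9.86 at 10 μM ibrutinib and 9.86, 9.81 and 9.77 with PLS-123. The ibrutinib arrays at both doses lay above all vehicle arrays, and no difference was called (0.18 at 10 μM ibrutinib, adjusted p = 0.158; 0.07 with PLS-123, adjusted p = 0.606). TM7SF2, a sterol reductase, read 5.62, 5.85 and 5.78 with vehicle, 5.79, 5.91 and 5.79 at 1 μM ibrutinib, 5.93, 5.93 and 6.08 at 10 μM ibrutinib and 6.02, 5.87 and 5.92 with PLS-123, with uncalled differences of 0.23 (adjusted p = 0.131) and 0.19 (0.177). DHCR7, the reductase of the last step in one arm of the pathway, read 7.89, 8.09 and 7.80 with vehicle, 7.82, 8.13 and 7.95 at 1 μM ibrutinib, 7.93, 7.99 and 8.08 at 10 μM ibrutinib and 7.86, 7.71 and 7.63 with PLS-123. Its arrays overlapped between PLS-123 and vehicle (difference −0.19, adjusted p = 0.245). LSS, NSDHL, HSD17B7 and SC5D, further enzymes of this part of the branch, differed from vehicle by between −0.09 and 0.08 with PLS-123. None was called by its brightest probe set, though NSDHL fell by the centred median (−0.27, adjusted p = 0.0131).

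Among the genes at the edge of the branch, AACS was called. AACS, which activates acetoacetate in the cytosol so that ketone bodies can feed sterol and fatty acid synthesis, read 6.01, 6.11 and 6.29 with vehicle, 6.25, 6.24 and 6.30 at 1 μM ibrutinib, 6.65, 6.98 and 6.75 at 10 μM ibrutinib and 6.82, 6.77 and 6.79 with PLS-123. The 6 arrays of 10 μM ibrutinib and PLS-123 stood above the 6 others. AACS rose 1.58-fold with PLS-123 (log2 difference 0.66, SE 0.10, adjusted p = 0.000377) and by 0.66 at 10 μM ibrutinib (adjusted p = 0.000475), calls kept in 22 and 21 of the 22 settings. ACAT2, the cytosolic thiolase, differed by 0.02 with PLS-123, and STARD4, a sterol carrier, by −0.07.

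In the fatty acid branch, 2 of 11 measured genes rose and 1 fell with PLS-123 (18.2% and 9.09%). The shares of all genes were 7.54% and 12.8%. With 10 μM ibrutinib 2 rose and none fell (18.2% and 0%, beside 6.71% and 5.82% of all genes). The median of the branch was 0.16 with PLS-123, 0.10 at 10 μM ibrutinib and 0.01 at 1 μM ibrutinib. By the brightest probe set the called genes were elongases and an acyl-CoA synthetase, and none of the enzymes that build palmitate was called.

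ELOVL6 had the largest change of the module with PLS-123 and with 10 μM ibrutinib. ELOVL6, the elongase that lengthens palmitate and palmitoleate, read 8.98, 8.92 and 8.99 with vehicle, 9.76, 9.31 and 9.38 at 1 μM ibrutinib, 10.77, 10.71 and 10.58 at 10 μM ibrutinib and 11.11, 10.93 and 11.04 with PLS-123. The 4 groups did not overlap and stood in the order vehicle, 1 μM ibrutinib, 10 μM ibrutinib, PLS-123, of which only the middle neighbours, the ibrutinib doses, differed by the test. ELOVL6 rose 4.18-fold with PLS-123 (log2 difference 2.06, 95% CI 1.82 to 2.30, SE 0.11, adjusted p = 3.02e-08) and 3.30-fold with 10 μM ibrutinib (1.72, 95% CI 1.48 to 1.96, adjusted p = 1.95e-07). Ranked by difference from the highest down, it was gene 45 of 19775 with PLS-123 and gene 64 with 10 μM ibrutinib. Both calls held in all 22 alternative settings, and its 3 probe sets gave 2.06, 2.16 and 1.88 with PLS-123 and 1.72, 1.80 and 1.85 at 10 μM ibrutinib.

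ELOVL5, the elongase of polyunsaturated chains, read 10.09, 10.01 and 10.00 with vehicle, 10.24, 10.06 and 10.15 at 1 μM ibrutinib, 10.41, 10.43 and 10.37 at 10 μM ibrutinib and 10.50, 10.42 and 10.42 with PLS-123. PLS-123 and 10 μM ibrutinib stood above the other groups without overlap. ELOVL5 rose by 0.41 with PLS-123 (SE 0.08, adjusted p = 0.00208) and by 0.37 at 10 μM ibrutinib (adjusted p = 0.00569). The rise is that of its brightest probe set. Another of its probe sets fell with PLS-123 (−0.37, adjusted p = 0.0241), a dimmer one differed by 0.06, and the centred median over all its probe sets was 0.07 with PLS-123 (adjusted p = 0.605) and 0.16 at 10 μM ibrutinib (0.237), neither called. ACSL5, which joins long-chain fatty acids to CoA, read 6.91, 6.87 and 6.89 with vehicle, 6.71, 6.89 and 6.89 at 1 μM ibrutinib, 6.58, 6.71 and 6.78 at 10 μM ibrutinib and 6.49, 6.33 and 6.37 with PLS-123. Its 3 PLS-123 arrays were the lowest of the 12. ACSL5 fell by 0.49 with PLS-123 (difference −0.49, SE 0.09, adjusted p = 0.00126), and its difference with 10 μM ibrutinib was −0.20 (adjusted p = 0.188). Its other probe set, nearly as bright, was at −0.09 with PLS-123 (adjusted p = 0.698), so that the centred median was −0.29 (adjusted p = 0.0222).

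**Figure D2:**
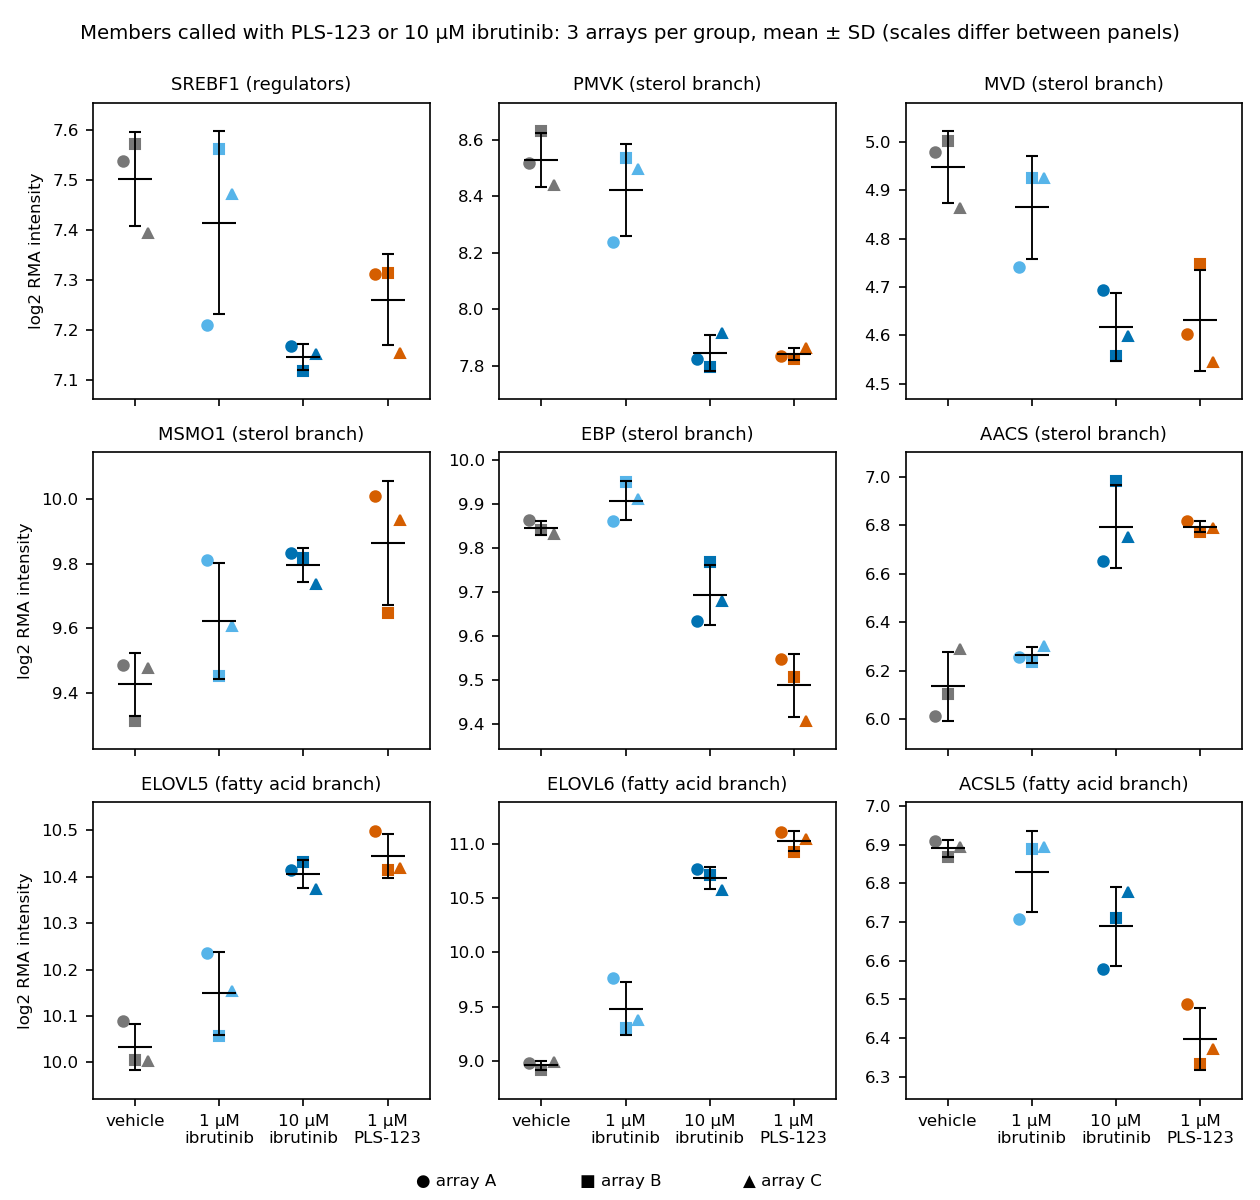
Log2 RMA intensity (y axis) of the 9 members called in at least 1 comparison with vehicle, 1 panel per gene, by group (x axis); markers are single arrays (circle A, square B, triangle C), and the line and bar are the mean and SD of 3 arrays. For PMVK, AACS and ELOVL6 the arrays of 10 μM ibrutinib and PLS-123 lie apart from those of vehicle and 1 μM ibrutinib, and for EBP and ACSL5 the PLS-123 arrays are the lowest.

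The enzymes that supply and build palmitate stayed close to vehicle by their brightest probe sets. ACLY, which makes cytosolic acetyl-CoA from citrate, differed by 0.15 with PLS-123 (adjusted p = 0.282), and FASN, the fatty acid synthase, by −0.08 (0.605). ACACA, the carboxylase that makes malonyl-CoA, read 8.47, 8.46 and 8.45 with vehicle, 8.38, 8.55 and 8.46 at 1 μM ibrutinib, 8.45, 8.46 and 8.46 at 10 μM ibrutinib and 8.29, 8.33 and 8.26 with PLS-123. ACACA was lower on each PLS-123 array than on any other, yet the difference of −0.17 was not called (adjusted p = 0.15), while another of its probe sets fell by 0.65 (difference −0.65, adjusted p = 9.03e-05) with PLS-123 and by 0.72 (difference −0.72, adjusted p = 3.99e-05) with 10 μM ibrutinib. ACACB, the carboxylase at the mitochondrial surface, differed by 0.21 with PLS-123 (adjusted p = 0.264). The centred median over the probe sets was lower and called with PLS-123 for ACLY (−0.29, adjusted p = 0.0242) and ACACA (−0.41, adjusted p = 0.000361), and at 10 μM ibrutinib for ACACA (−0.36, adjusted p = 0.0011).

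SCD, the desaturase that makes oleate and palmitoleate, read 11.08, 11.29 and 11.21 with vehicle, 11.35, 11.25 and 11.24 at 1 μM ibrutinib, 11.38, 11.37 and 11.42 at 10 μM ibrutinib and 11.35, 11.34 and 11.37 with PLS-123. Both groups stood just above vehicle, by 0.16 with PLS-123 (adjusted p = 0.203) and 0.19 at 10 μM ibrutinib (adjusted p = 0.16). Other probe sets of SCD went the other way, at −0.18, −0.50 (adjusted p = 0.00287) and −0.55 (adjusted p = 0.000918) with PLS-123, and its centred median fell with PLS-123 (−0.32, adjusted p = 0.00475) and with 10 μM ibrutinib (−0.23, adjusted p = 0.0443), so that the array gives no single direction for this gene. FADS2, the desaturase of polyunsaturated chains, differed by 0.16 with PLS-123 (adjusted p = 0.527). ACSL4, the synthetase that favours arachidonate, was the most variable member, with 4.41, 4.46 and 4.63 with vehicle, 5.40, 4.01 and 4.46 at 1 μM ibrutinib, 4.57, 4.50 and 4.44 at 10 μM ibrutinib and 5.66, 4.65 and 5.35 with PLS-123. Its PLS-123 arrays all lay above vehicle but spanned a full log2 unit, and the difference of 0.72 (95% CI 0.10 to 1.34, adjusted p = 0.11) was not called. ACSL1 differed by 0.08 by its brightest probe set (adjusted p = 0.66), while another probe set rose by 0.77 (adjusted p = 0.00223) with PLS-123 and by 0.49 (adjusted p = 0.046) with 10 μM ibrutinib. Its centred median rose with PLS-123 as well (0.43, adjusted p = 0.00427) and with 10 μM ibrutinib (0.35, adjusted p = 0.0181).

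The size of change that the arrays allow was read from the brightest probe set of each uncalled member. With PLS-123 the 95% confidence interval lay within a 1.5-fold change in either direction for 25 of 26 uncalled members, the exception being ACSL4. With 10 μM ibrutinib it did so for 26 of 28, the exceptions being MSMO1 and ACSL4, and with 1 μM ibrutinib for 32 of 34, the exceptions being ELOVL6 and ACSL4. These intervals do not cover the other probe sets, of which 1 each of SREBF2, ACACA and ACSL1 passed a 1.5-fold change with a call with PLS-123, and 1 each of ACACA and ACACB with 10 μM ibrutinib.

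The promoters of 4 members are printed because these genes had the largest called differences of their branch with PLS-123, PMVK, AACS and MSMO1 in the sterol branch and ELOVL6 in the fatty acid branch. Each is the 250 bases before the start of the gene in RefSeq (GRCh38.p14), 5′ to 3′ on the strand of the gene. Capitals mark matches on either strand to the 4 motifs searched, the core of the sterol regulatory element (TCACNCCAC) bound by SREBPs, the E-box (CACGTG), the NF-Y box (CCAAT) and the GC box (GGGCGG) bound by Sp1, none of which overlap in the 4 promoters. PMVK lies on the minus strand at chr1:154936720-154936969, AACS on the plus strand at chr12:125065185-125065434, MSMO1 on the plus strand at chr4:165327419-165327668 and ELOVL6 on the minus strand at chr4:110198616-110198865. For PMVK and ELOVL6 the RefSeq gene span reaches further upstream than this start, so other transcripts begin elsewhere.
PMVK: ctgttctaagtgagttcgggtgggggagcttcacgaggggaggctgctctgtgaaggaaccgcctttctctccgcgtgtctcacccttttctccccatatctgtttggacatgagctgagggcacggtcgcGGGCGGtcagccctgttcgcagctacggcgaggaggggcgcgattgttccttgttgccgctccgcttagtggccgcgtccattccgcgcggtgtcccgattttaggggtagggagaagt
AACS: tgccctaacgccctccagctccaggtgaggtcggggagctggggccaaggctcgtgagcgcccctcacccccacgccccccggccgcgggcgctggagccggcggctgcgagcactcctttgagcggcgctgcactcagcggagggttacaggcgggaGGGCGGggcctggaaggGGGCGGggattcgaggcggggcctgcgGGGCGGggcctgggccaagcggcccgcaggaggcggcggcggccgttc
MSMO1: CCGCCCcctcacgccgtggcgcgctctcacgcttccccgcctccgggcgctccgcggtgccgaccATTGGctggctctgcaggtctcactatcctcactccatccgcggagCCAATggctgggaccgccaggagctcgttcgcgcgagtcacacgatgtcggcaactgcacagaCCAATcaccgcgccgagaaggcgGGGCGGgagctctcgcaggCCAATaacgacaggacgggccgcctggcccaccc
ELOVL6: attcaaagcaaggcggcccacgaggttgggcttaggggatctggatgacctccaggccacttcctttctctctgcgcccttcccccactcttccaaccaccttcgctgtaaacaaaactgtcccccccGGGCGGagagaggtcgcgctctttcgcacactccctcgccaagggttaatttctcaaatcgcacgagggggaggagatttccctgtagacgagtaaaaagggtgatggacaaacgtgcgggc

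MSMO1 holds 4 NF-Y boxes and 2 GC boxes in this window, AACS 3 GC boxes, and PMVK and ELOVL6 1 GC box each. The letters of the sterol regulatory element core are in none of the 4 windows, which says nothing about SREBP binding there. Among the 31 measured members with a promoter in RefSeq, the core was found in 2 (6.45%, in ACSL1 and SREBF2) beside 1.09% of 27305 genes with a window of the same length, the E-box in 4 (12.9%) beside 7.73%, the NF-Y box in 22 (71%) beside 37% and the GC box in 28 (90.3%) beside 46.2%. A gene was counted where the window of any of its start sites held the motif. The 27305 genes were not limited to those measured or above the dim limit here, so the shares do not set the members beside expressed genes. These are counts of letters and not of bound sites.

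At 1 μM, the dose at which both compounds were given, ibrutinib left the members near vehicle. Over all probe sets 0 were called with 1 μM ibrutinib by limma, with 2943 at an unadjusted p under 0.05. ELOVL6 and SQLE alone of the members had an unadjusted p under 0.05 in this comparison (0.000399 and 0.0475) and arrays that all lay above vehicle. That is 2 of 34 members above without overlap and none below, beside 4.87% and 5.16% of all genes. ELOVL6 was 0.52 higher than vehicle (95% CI 0.28 to 0.76, adjusted p = 0.623), gene 10 of 19775 by difference, and it passed the threshold in 1 of the 22 settings, with an intensity trend (adjusted p = 0.0335). SQLE was 0.16 higher (adjusted p = 0.92).

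Arrays A and B of 1 μM ibrutinib stood on opposite sides of their group mean in several members. Array A lay above the mean by 0.78 for ACSL4, 0.34 for INSIG1, 0.28 for ELOVL6, 0.22 for HMGCS1 and 0.19 for MSMO1. Its deviation was −0.20 for SREBF1, −0.18 for SREBF2 and −0.14 for FASN. Array B deviated by −0.61, −0.28, −0.18, −0.19 and −0.17 in the first 5 of these genes, in the same order. In SREBF1, SREBF2 and FASN its deviation was 0.15, 0.11 and 0.11. The ACTB difference of array A was the highest of its group. Without array A, and with array B kept, ELOVL6 was 0.38 above vehicle (adjusted p = 0.864) and MSMO1 0.10 above. The differences of HMGCS1 (−0.04), INSIG1 (−0.07) and ACSL4 (−0.27) then lay below 0.

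Between PLS-123 and ibrutinib at the same dose of 1 μM, 3 members were higher and 3 lower with PLS-123, 8.82% in each direction beside 5.78% and 10.1% of all genes. ELOVL6 was 2.91-fold higher with PLS-123 (log2 difference 1.54, 95% CI 1.30 to 1.78, adjusted p = 6.37e-07), AACS 0.53 higher (adjusted p = 0.00259) and ELOVL5 0.30 higher (adjusted p = 0.0211). PMVK was lower with PLS-123 (−0.58, adjusted p = 0.000792), as were ACSL5 (−0.43, adjusted p = 0.00409) and EBP (−0.42, adjusted p = 0.00217). In each of these 6 genes the 3 PLS-123 arrays did not overlap the 3 arrays of 1 μM ibrutinib. The difference for ELOVL5 was lost without array B (0.0907) or C (0.0629) of 1 μM ibrutinib, without array A (0.0687) or C (0.0512) of PLS-123 and with the ACTB covariate (0.176), and the centred median over its probe sets was −0.06 (adjusted p = 0.724). That for ACSL5 was lost with the ACTB covariate (0.0685). The calls of ELOVL5 and ACSL5 between the compounds at 1 μM held in 13 and 19 of the 22 alternative settings. Of the 28 members not called between the compounds at 1 μM, 27 had an interval within a 1.5-fold difference by the brightest probe set, ACSL4 being the exception.

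The other pairing sets 1 μM PLS-123 beside a 10 times higher dose of ibrutinib, so the compounds and the doses differ together. No member was called between them (0 higher and 0 lower of 34, beside 0.0708% and 0.142% of all genes). The unadjusted p was under 0.05 for 8 of the 34 members, beside 8333 of all 54613 probe sets. PMVK (−0.00, adjusted p = 0.99), AACS (−0.00, adjusted p = 0.996), MVD (0.01) and ELOVL5 (0.04, adjusted p = 0.856) had nearly the same level in both groups. ELOVL6 was 0.34 higher with PLS-123, with all of its arrays above all of those of 10 μM ibrutinib (95% CI 0.10 to 0.58, adjusted p = 0.179). ACSL5 (−0.29, adjusted p = 0.149), DHCR7 (−0.27) and EBP (−0.21, adjusted p = 0.223) were lower with PLS-123, none called. The interval lay within a 1.5-fold difference for 33 of the 34 members, ACSL4 being the exception at 0.72 (adjusted p = 0.254).

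**Figure D3:**
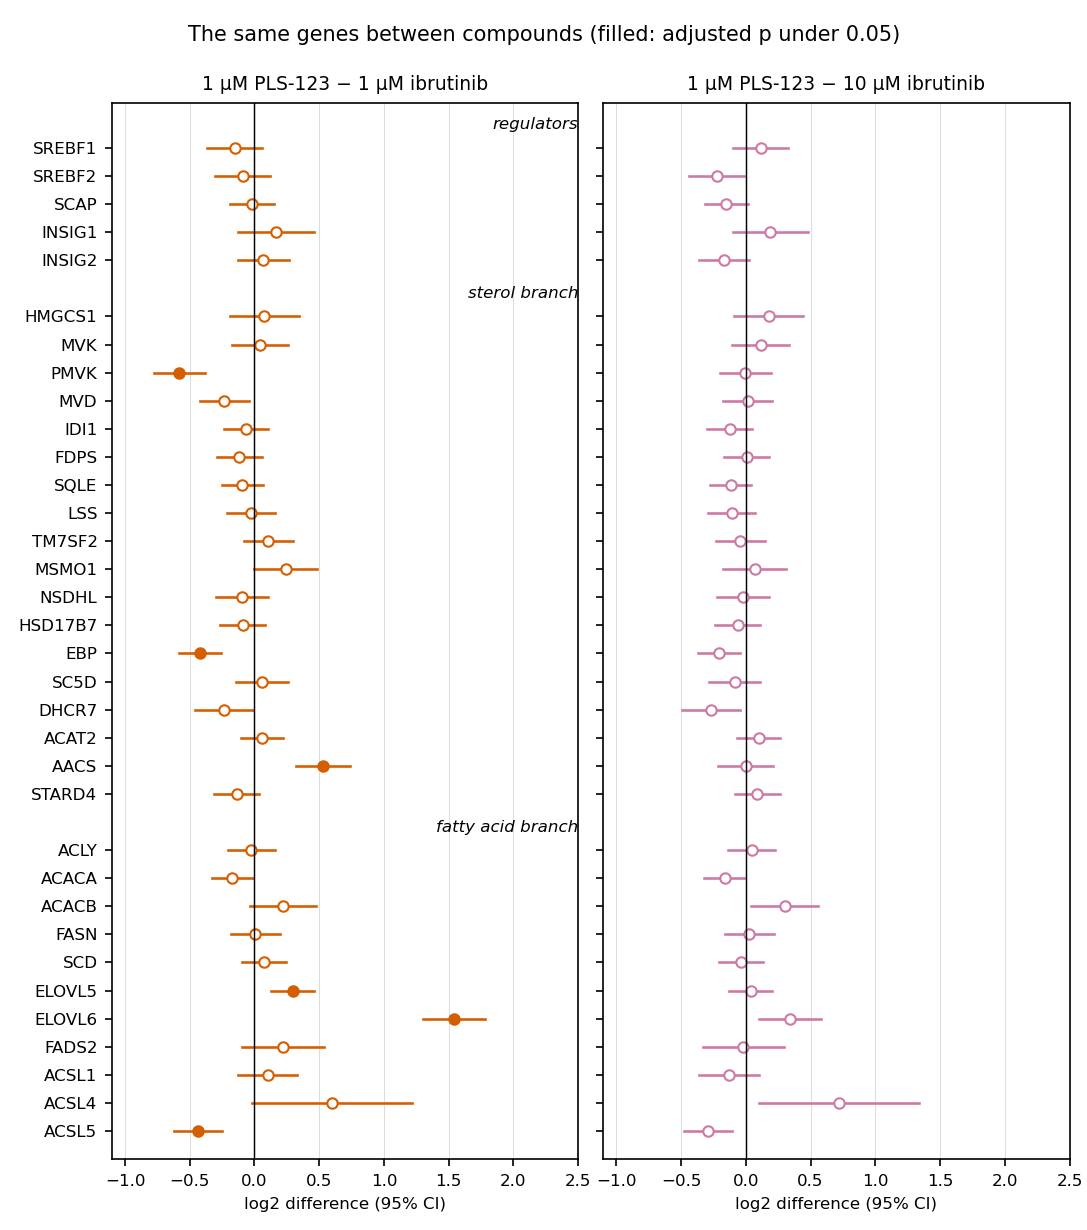
Log2 difference of 1 μM PLS-123 from 1 μM ibrutinib and from 10 μM ibrutinib (2 panels) for the 34 measured members, with 95% confidence intervals from limma; filled points have an adjusted p under 0.05. At the same dose 6 members are called, with ELOVL6 at 1.54 the farthest from 0, whereas no member is called against the higher dose.

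Within ibrutinib, 2 members were higher and 1 lower at 10 μM than at 1 μM (5.88% and 2.94%, beside 5.27% and 4.46% of all genes). ELOVL6 was 1.20 higher (adjusted p = 7.93e-06), AACS 0.53 higher (adjusted p = 0.00325) and PMVK lower (−0.58, adjusted p = 0.00103).

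**Figure D4:**
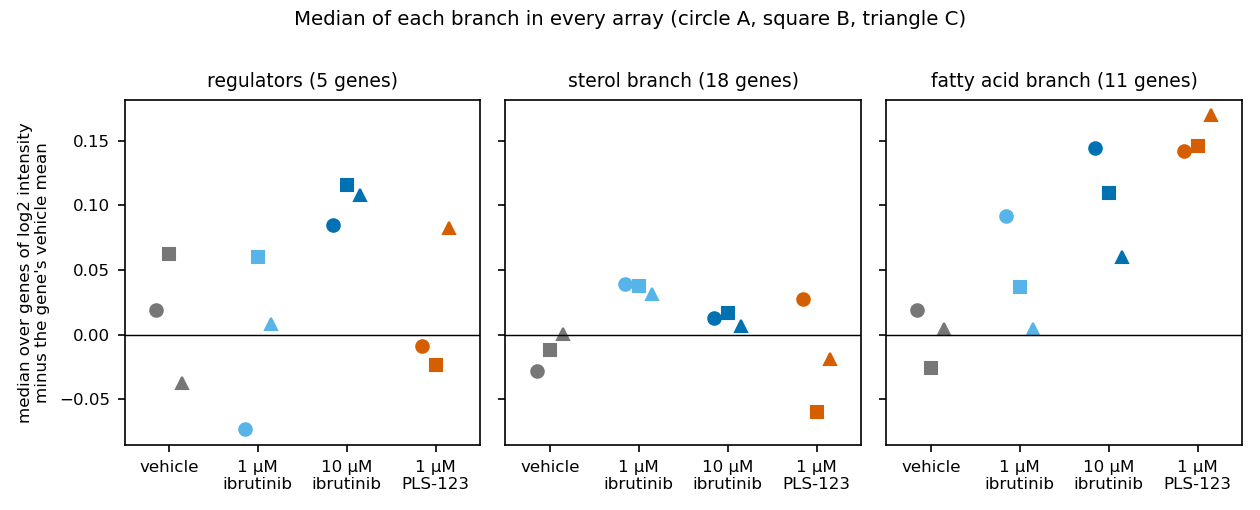
Median over the genes of each branch of the log2 difference from the vehicle mean, per array (points, 12 arrays) and by group (x axis), for the regulators, the sterol branch and the fatty acid branch. The fatty acid branch lies at 0.14 to 0.17 on the PLS-123 arrays and 0.06 to 0.14 on those of 10 μM ibrutinib, while the sterol branch stays within −0.06 to 0.04 on all 12.

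The branches were set beside each other by the median of their genes on each array, relative to the vehicle mean. The fatty acid median ran from −0.03 to 0.02 on the vehicle arrays, from 0.00 to 0.09 with 1 μM ibrutinib, from 0.06 to 0.14 at 10 μM ibrutinib and from 0.14 to 0.17 with PLS-123. The sterol median stayed between −0.03 and 0.00 with vehicle, 0.03 and 0.04 at 1 μM ibrutinib, 0.01 and 0.02 at 10 μM ibrutinib and −0.06 and 0.03 with PLS-123. The median of the 5 regulators lay between −0.04 and 0.06 with vehicle and between 0.08 and 0.12 at 10 μM ibrutinib. From the limma differences, the sterol median minus the fatty acid median was −0.18 with PLS-123, −0.13 at 10 μM ibrutinib and 0.04 at 1 μM ibrutinib. On single arrays this gap was −0.11, −0.21 and −0.19 with PLS-123 and −0.13, −0.09 and −0.05 at 10 μM ibrutinib. At 1 μM ibrutinib it was −0.05, 0.00 and 0.03, so no array reached 0.04. These gaps are far smaller than the change of ELOVL6. By the centred median over the probe sets of each gene the gap was 0.06 with PLS-123, with branch medians of −0.09 for sterol and −0.16 for fatty acid genes, so the choice of probe set sets the sign and neither branch is ranked above the other here.

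The probe sets of a member often disagreed. Of the 34 measured members 23 have more than 1 probe set of their own, and 20 have more than 1 above the dim limit. With PLS-123, 7 of these 20 had another probe set that was called with a sign opposite to that of the brightest (INSIG1, HMGCS1, MVK, ACLY, ACACB, SCD and ELOVL5), and with 10 μM ibrutinib IDI1 and SCD did. The share of all genes with such a probe set was not counted, so these numbers describe the members only. By the centred median INSIG1 was at −0.13, HMGCS1 at −0.10, MVK at −0.16 and ACACB at −0.17 with PLS-123, none called. Each of these has the sign opposite to that of the brightest probe set. The centred median of IDI1 was −0.10 with PLS-123 and −0.03 at 10 μM ibrutinib, neither called. IDI1 was at −0.03 by its brightest probe set and at −0.53 (adjusted p = 0.000712) by another with PLS-123, NSDHL at −0.09 and −0.44 (adjusted p = 0.0122), and INSIG1 at 0.27 and −0.54 (adjusted p = 0.000564). SREBF2 was at −0.15 by its brightest probe set, beside −0.67 (adjusted p = 8.44e-05) and −0.41 (adjusted p = 0.00169) by others. Of the 39 dimmer probe sets of these 20 members, 31 (79.5%) had a lower difference with PLS-123 than the brightest of the same gene, by 0.34 in the median, beside 52.3% of 10341 dimmer probe sets of 5850 genes. With 10 μM ibrutinib the number was also 31 (79.5%, beside 54.6%), and with 1 μM ibrutinib 27 (69.2%, beside 51.4%). This count was made after the values were seen and is a description. Where on a transcript each probe set lies was not analysed here.

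**Figure D5:**
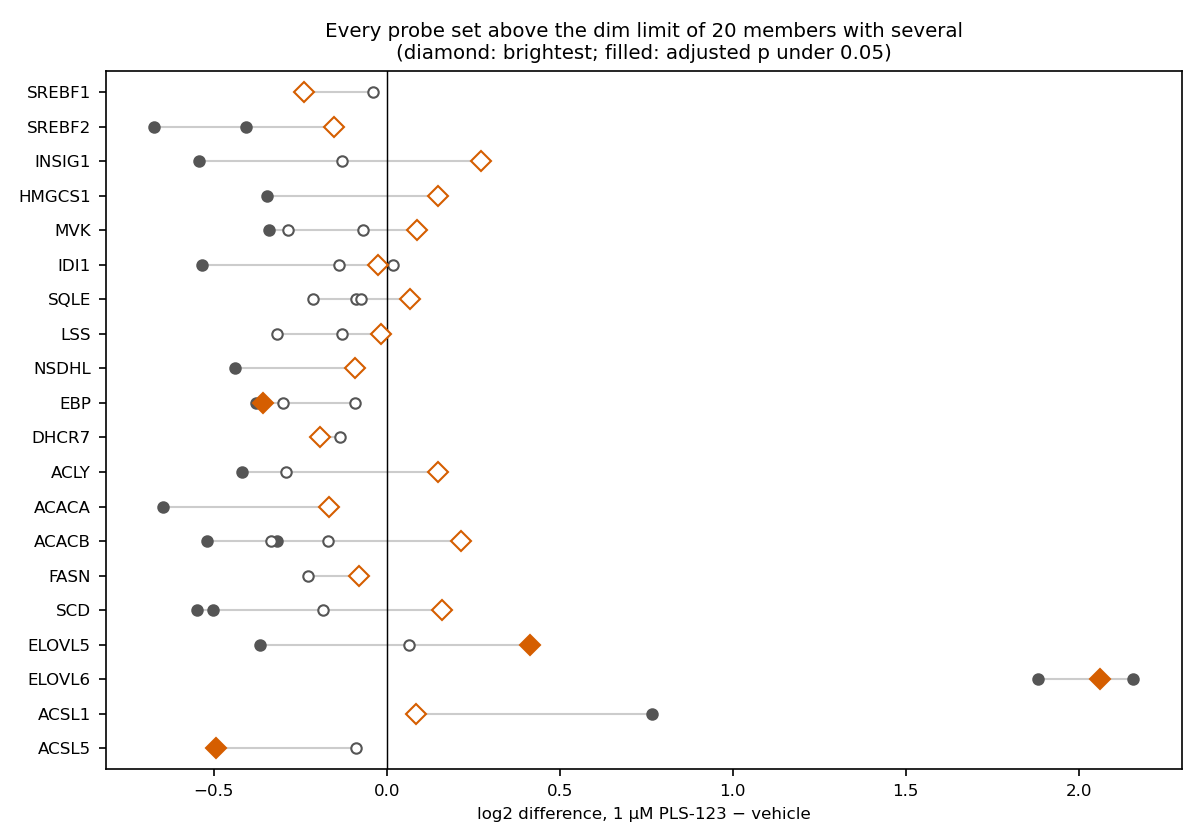
Log2 difference of PLS-123 from vehicle for every probe set above the dim limit of the 20 members that have more than 1 (rows); diamonds are the brightest probe set of the gene, circles the others, and filled symbols have an adjusted p under 0.05. The 3 probe sets of ELOVL6 lie close together (1.88 to 2.16), while those of SCD, INSIG1 and SREBF2 spread over both sides of 0 or far from the diamond.

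Genes around the module were read from 6 lists that hold no member. With PLS-123, 3 of 10 genes of SREBP processing and turnover rose and 1 fell, 2 of 20 genes of sterol uptake, efflux and storage rose and 4 fell, 1 of 13 genes of the isoprenoid side branch rose and 6 fell, 2 of 23 other genes of fatty acid synthesis rose and 6 fell, 0 of 23 genes of fatty acid oxidation rose and 4 fell, and 1 of 19 genes of glycerolipids and lipid droplets rose and 4 fell. Across all genes 7.54% rose and 12.8% fell. With 10 μM ibrutinib the same lists had 3 and 0, 2 and 2, 1 and 0, 2 and 1, 0 and 2, and 1 and 1 genes higher and lower, beside 6.71% and 5.82%. None was called with 1 μM ibrutinib. With the ACTB covariate the counts with PLS-123, in the same order, became 1 and 0, 2 and 1, 0 and 1, 2 and 1, 0 and 0, and 1 and 0, while 3.86% of all genes were higher and 4.28% lower. With quantile normalization they were 5 and 0, 4 and 4, 1 and 4, 2 and 5, 1 and 2, and 2 and 3, beside 9.61% and 10.2% of all genes, and after centring of the arrays 3 and 1, 3 and 3, 1 and 5, 2 and 4, 0 and 3, and 1 and 3, beside 8.49% and 10.3%.

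LPIN1, which makes diacylglycerol and, in the nucleus, restrains SREBP, read 8.48, 8.46 and 8.46 with vehicle, 8.12, 8.34 and 8.25 at 1 μM ibrutinib, 9.58, 9.64 and 9.56 at 10 μM ibrutinib and 9.45, 9.41 and 9.37 with PLS-123. It rose by 0.94 with PLS-123 (adjusted p = 1.82e-06) and by 1.13 at 10 μM ibrutinib (adjusted p = 3.57e-07), and its 1 μM ibrutinib arrays all lay below vehicle. With PLS-123 PAQR3, a Golgi anchor of SCAP and SREBP, rose by 0.95 (adjusted p = 0.00448), MBTPS2, the protease that makes the second cut in SREBPs, rose by 0.26 (adjusted p = 0.0241), and FBXW7, which marks mature SREBP for destruction, fell (−0.35, adjusted p = 0.0159). These 3 calls were lost with the ACTB covariate (adjusted p = 0.19 for PAQR3, 0.164 for MBTPS2 and 0.236 for FBXW7). With 10 μM ibrutinib MBTPS2 (0.42, adjusted p = 0.00149) and TMEM97 (0.32, adjusted p = 0.0122) rose.

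Among the genes of sterol uptake, efflux and storage, ABCA1, the cholesterol exporter and a target of liver X receptors, read 7.33, 7.47 and 7.23 with vehicle, 7.37, 7.31 and 7.25 at 1 μM ibrutinib, 6.15, 6.27 and 6.37 at 10 μM ibrutinib and 6.78, 6.64 and 6.47 with PLS-123. It fell with PLS-123 (−0.72, adjusted p = 0.000211) and with 10 μM ibrutinib (−1.08, adjusted p = 5.97e-06). SOAT1, which stores cholesterol as esters, rose by 0.46 (adjusted p = 0.00213) and 0.52 (0.00107). GRAMD1C, a sterol transfer protein, rose by 1.12 (adjusted p = 2.12e-05) and 0.73 (0.00108), though its probe set is dim. NPC2, the lysosomal cholesterol carrier, fell with PLS-123 (−0.39, adjusted p = 0.00996), a call lost with the ACTB covariate (0.2), and MYLIP, which degrades lipoprotein receptors, fell with 10 μM ibrutinib (−0.43, adjusted p = 0.00263).

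The elongases work in a cycle with a reductase, a dehydratase and a second reductase, and the measured partners of ELOVL6 did not all move one way. HSD17B12, the first reductase, read 10.95, 11.07 and 10.94 with vehicle, 10.50, 10.46 and 10.55 at 10 μM ibrutinib and 10.45, 10.41 and 10.38 with PLS-123, and fell by 0.57 with PLS-123 (difference −0.57, adjusted p = 0.00013) and 0.48 at 10 μM ibrutinib (difference −0.48, adjusted p = 0.000663). HACD2, a dehydratase, rose by 0.60 (adjusted p = 0.0012) and 0.52 (0.00451). HACD3, another dehydratase, differed by −0.03 and 0.17, and TECR, the last reductase, by −0.06 and 0.05, none called. The other elongases of the list, ELOVL2, ELOVL3, ELOVL4 and ELOVL7, were dim and not called. MID1IP1, an activator of acetyl-CoA carboxylase, rose by 0.40 with PLS-123 (adjusted p = 0.00248) and 0.40 at 10 μM ibrutinib (0.00325). MLX, the partner of the ChREBP transcription factor, fell with PLS-123 (−0.35, adjusted p = 0.00642), a call lost with the ACTB covariate (0.126).

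Where mevalonate leaves the sterol path for isoprenoids, PGGT1B, a subunit of the enzyme that adds geranylgeranyl groups to proteins, rose by 0.63 with PLS-123 (adjusted p = 0.00128) and 0.45 at 10 μM ibrutinib (0.016). GGPS1 (−0.49, adjusted p = 0.00163), DHDDS (−0.44, adjusted p = 0.00245) and COQ2 (−0.51, adjusted p = 0.00254), which make geranylgeranyl diphosphate, dolichol and ubiquinone, fell with PLS-123. With the ACTB covariate COQ2 kept its call (0.0417), while PGGT1B (0.0666), GGPS1 (0.0726) and DHDDS (0.0836) lost theirs. In fatty acid oxidation ETFB (−0.54, adjusted p = 0.0038), HSD17B4 (−0.46, adjusted p = 0.00451), ACADVL (−0.31, adjusted p = 0.0208) and ECI2 (−0.29, adjusted p = 0.0408) fell with PLS-123, all lost with the covariate (adjusted p from 0.13 to 0.36). ETFB (−0.41, adjusted p = 0.0289) and HSD17B4 (−0.34, adjusted p = 0.0376) also fell with 10 μM ibrutinib, calls lost with the covariate (0.0525 and 0.0792). Of the glycerolipid genes, LPIN2, a relative of LPIN1, rose by 0.58 with PLS-123 (adjusted p = 0.00079) and 0.42 at 10 μM ibrutinib (0.0122). AGPAT1 (−0.47, adjusted p = 0.00644) and AGPAT2 (−0.41, adjusted p = 0.0142), which make phosphatidic acid, and LIPE (−0.56, adjusted p = 0.00696), the hormone-sensitive lipase, fell with PLS-123, each lost with the covariate (0.23, 0.241 and 0.216). MGLL, the monoacylglycerol lipase, fell with 10 μM ibrutinib (−0.43, adjusted p = 0.00424) and with PLS-123 (−0.30, adjusted p = 0.0265). Its PLS-123 call was lost with the covariate, with which no gene of this list was lower.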

How the data were processed

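The 12 arrays were the 4 treatment groups of OCI-Ly7 with 3 arrays each, grouped by the sample labels. The deposited values are intensities that the authors normalized by RMA, whose version is not stated; they run from 2.09 to 15751 on the linear scale, where the plan had assumed log2, so log2 was taken first. RMA equalizes the arrays, so a change shared by most transcripts would be removed. The number of arrays limits the precision. No 2 arrays were identical (highest correlation 0.997).

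Of 54675 probe sets 62 controls were left out. The platform annotation gives 41091 of the rest a single symbol, 1801 several and 11721 none, and the brightest probe set with a single symbol stood for a gene. limma 3.58.1 (R 4.3.3) with eBayes modelled the 12 arrays together by group means (8 residual degrees of freedom), p values two-sided, Benjamini-Hochberg over 54613 probe sets, called under 0.05, for 6 comparisons. The fit was tested on simulated data.

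Members and lists were chosen with earlier results of these data known. Values per array are given for the regulators and for up to 8 sterol and 6 fatty acid genes with the smallest adjusted p. Of the other lists, up to 4 called genes with the smallest adjusted p with PLS-123 and with 10 μM ibrutinib were named, and values per array were given for LPIN1, ABCA1 and HSD17B12, a choice made after their values were seen. The elongation partners HACD3 and TECR and the dim elongases were named after their values were seen. The plan also chose the promoters of ACSL4 and INSIG1, which are not shown because neither gene was called.

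Alternatives were the methods' t-test, an intensity trend, a replicate block, quantile normalization, centring, leaving out dim probe sets, the median level over a gene's probe sets, the ACTB 3'−5' covariate and leaving out each array. Chosen after seeing the data were the counts (and, with the covariate, single genes) of the other lists under quantile normalization, centring and the ACTB covariate, the centred median over a gene's probe sets, the uncalled members' other probe sets past the fold threshold, and 1 μM ibrutinib without array A for every member. Letters did not pair the arrays: the residuals of same-letter arrays correlated at −0.255 to 0.224, and 2 of 12 arrays correlated best with their own letter.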

Additional observations from a re-analysis of the deposited data

How the results depend on the processing

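Of 528 values of 24 gene results over 22 alternative settings, 462 kept direction and call, 62 lost the call, 1 gained it and 3 reversed. The reversals were all of ELOVL5. The planned median was taken over log2 levels, which on 4 probe sets of unlike brightness averages the middle pair, and gave −0.15 with PLS-123 against vehicle (adjusted p = 0.189) and −0.31 against 1 μM ibrutinib (adjusted p = 0.0123). The centred median, added after the data were seen, was 0.07 and −0.0562 (adjusted p = 0.605 and 0.724). Small changes near the threshold (MVD, SREBF1, MSMO1) and members with discordant probe sets are the least certain, 3 arrays per group limit what could be called, and the causes of these dependences were not tested.

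Counts of called sterol genes were 5 with PLS-123, 3 with 10 μM ibrutinib, 3 between PLS-123 and 1 μM ibrutinib and 2 between the ibrutinib doses, and those of fatty acid genes were 3, 2, 3 and 1. With the median level over the probe sets the sterol counts became 9 for PLS-123 and 5 for 10 μM ibrutinib, and the fatty acid counts 7, 5, 7 and 3. With the centred median the fatty acid counts were 6, 4, 5 and 2, and the sterol counts 6, 4, 4 and 2. By that median 7.07% of all genes were higher and 13.6% lower with PLS-123, and 6.74% and 6.91% with 10 μM ibrutinib. With the methods' t-test after adjustment the sterol counts became 3 with PLS-123, 1 with 10 μM ibrutinib and 0 between doses, and the fatty acid counts 1 between PLS-123 and 1 μM ibrutinib and 0 between doses. Its unadjusted p with the fold threshold gave sterol counts of 2 with PLS-123, 0 between PLS-123 and 1 μM ibrutinib and 0 between doses, and fatty acid counts of 1 with PLS-123, 1 with 10 μM ibrutinib and 1 between PLS-123 and 1 μM ibrutinib. The t-test after adjustment lost the call of 11 of the 24 gene results. Among them were AACS with 10 μM ibrutinib (adjusted p = 0.077), MSMO1 with PLS-123 (0.132) and PMVK between PLS-123 and 1 μM ibrutinib (0.0703). Between doses they included PMVK (0.0951), AACS (0.112) and ELOVL6 (0.0518). With the ACTB covariate the sterol count with PLS-123 was 2 and the fatty acid count between PLS-123 and 1 μM ibrutinib was 1. By that fit 3.86% of all genes were higher and 4.28% lower with PLS-123 than with vehicle. With an intensity trend the fatty acid counts were 5 with PLS-123, 1 with 1 μM ibrutinib, 1 between PLS-123 and 10 μM ibrutinib and 2 between doses. Quantile normalization and centring each gave 2 between doses for the fatty acid branch. Without dim probe sets the sterol counts were 5 with 10 μM ibrutinib and 5 between doses, and the fatty acid count between doses was 2. The main counts have their shares of all genes in the results above. The counts under the other settings, here and in the next paragraph, stand without such a share, which also moves with the setting. They describe how the member calls depend on the processing and nothing further.

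The gap between the branch medians was 0.0603 with PLS-123 and 0.00341 with 10 μM ibrutinib by the centred median, and moved with the median level over the probe sets to 0.12 with PLS-123, −0.0244 with 10 μM ibrutinib and −0.0207 with 1 μM ibrutinib, and with quantile normalization to −0.17 with 10 μM ibrutinib. Leaving out each array in turn gave gaps from −0.21 to −0.16 with PLS-123, from −0.16 to −0.0593 with 10 μM ibrutinib (−0.0593 without vehicle array B) and from −0.0420 to 0.0463 with 1 μM ibrutinib (−0.01 without vehicle array A, −0.0420 without vehicle array B). The sterol count with PLS-123 ran from 3 to 5 (3 without vehicle array B, PLS-123 array A or PLS-123 array C), that with 10 μM ibrutinib from 2 to 4, that between PLS-123 and 1 μM ibrutinib from 3 to 4, and the fatty acid counts from 3 to 4 with PLS-123, from 2 to 4 between PLS-123 and 1 μM ibrutinib and from 1 to 2 between doses (2 without array A of 1 μM ibrutinib). The replicate block changed no call of the 24 gene results, gave 5 sterol and 3 fatty acid genes with PLS-123 and 4 sterol genes with 10 μM ibrutinib, and left SREBF1 at an adjusted p of 0.048. Of all called probe sets with PLS-123, 62.0% were lower, with 52.4% under quantile normalization and 53.7% after centring. Between PLS-123 and 1 μM ibrutinib the share was 63.4%, with 53.0% and 51.2%, and between PLS-123 and 10 μM ibrutinib 72%, with 55.6% and 68.2%.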
